A study of Rattus norvegicus with 12 samples.

Results

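The 10 genes described here encode proteins generally held to restrain or shape signalling through the extracellular signal-regulated kinase (ERK). Their transcripts were measured in primary cortical neuroglial cultures of Wistar rats. They are the dual-specificity phosphatases Dusp1, Dusp4, Dusp5, Dusp6 and Dusp14, the Sprouty genes Spry2 and Spry4, the Spred genes Spred1 and Spred2, and the early response gene Ier3. They were matched by symbol, 10 of the 28111 different names in the files, and each had 1 row. They were chosen by earlier results of these same libraries. Their differences from the control and from the vesicle-treated cultures are therefore a description and carry no p-value for any single gene, and the counts past a threshold stand only beside the share of all genes. The 4 groups held 3 libraries each. Intact control cultures (IC) received no addition, EV cultures received extracellular vesicles of glial progenitor cells (EV-GPCs) at 10 µg/mL, and the remaining cultures received 3–100 kDa proteins at 15 µg/mL or the total secretome (TS) at 45 µg/mL. All were rat brain cortex cultures on day 10 in vitro, and RNA was collected 4 h after each addition. The preparations came from medium conditioned by glial progenitor cells that had been differentiated from human induced pluripotent stem cells. Per the methods for the vesicles, these cells grew with EGF and CNTF before a serum-free collection step. Per the same methods, the neuroglial cultures received cytosine arabinoside, which limits dividing glia. Since the control received no vehicle, the effect of a preparation and that of an addition cannot be told apart, and the doses of the 3 preparations differ. The labels give pups of postnatal day 0, whereas the methods give postnatal days 1 to 2. The methods describe repeated experiments on unrelated cultures in general, and the supplement mentions a day effect for IC and EV, but the culture and day of each library are not given. The tests therefore measure the spread between these libraries, part of which may be technical or due to the day.

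As background, growth factor receptors switch on ERK through Ras, Raf and MEK, and active ERK switches on genes whose products in turn restrain the pathway. Dual-specificity phosphatases remove phosphate from both the threonine and the tyrosine of the activation loop of MAP kinases. Sprouty and Spred proteins act further upstream, between the receptor and Raf, and Spred1 brings the Ras inactivator neurofibromin to the membrane. In neurons and glia such genes are commonly read as a trace of recent ERK signalling. Their transcripts are measured here, not the phosphorylation of ERK.

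The sequences before the start sites of 3 phosphatase genes are shown because these genes stood at 3 different places in the data. Dusp5 was among the genes with the largest ratio of 3–100 kDa protein cultures to IC, Dusp6 was higher in all 3 treatments, and Dusp1 was the single gene with a mean below IC in every treatment. Each runs 5′ to 3′ over the 250 bases before the annotated start (RefSeq, GRCr8), on the strand of the gene, and capitals mark a motif match. Dusp5 lies at chr1:262543524-262543773, Dusp1 at chr10:17184603-17184852 and Dusp6 at chr7:35979354-35979603, all on the plus strand.
Dusp5: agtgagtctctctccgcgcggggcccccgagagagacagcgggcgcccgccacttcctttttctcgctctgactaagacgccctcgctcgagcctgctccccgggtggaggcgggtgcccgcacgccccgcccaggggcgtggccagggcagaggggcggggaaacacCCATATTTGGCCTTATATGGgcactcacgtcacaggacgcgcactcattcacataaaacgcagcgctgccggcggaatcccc
Dusp1: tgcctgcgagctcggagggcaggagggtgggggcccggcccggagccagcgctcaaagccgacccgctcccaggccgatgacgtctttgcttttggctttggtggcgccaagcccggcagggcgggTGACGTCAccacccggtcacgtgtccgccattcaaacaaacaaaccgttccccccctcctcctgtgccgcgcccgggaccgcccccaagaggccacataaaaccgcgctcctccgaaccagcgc
Dusp6: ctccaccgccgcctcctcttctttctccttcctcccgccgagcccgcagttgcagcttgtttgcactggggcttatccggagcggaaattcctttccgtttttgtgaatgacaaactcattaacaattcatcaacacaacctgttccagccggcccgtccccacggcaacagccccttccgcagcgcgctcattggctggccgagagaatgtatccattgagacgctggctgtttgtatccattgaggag
In Dusp5 the capitals are 2 adjoining CArG boxes, the letters bound by serum response factor, at −82 to −73 and −72 to −63 from the start. In Dusp1 they are a cyclic AMP response element, TGACGTCA, at −124 to −117. Dusp6 held none of the 4 motifs searched on both strands, which also included the AP-1 letters TGANTCA and the ETS letters CCGGAAGT. Of the 10 genes, 8 were in the promoter table with 11 windows, and the other two, Dusp4 and Ier3, were not matched. The only further match was an AP-1 motif at −89 to −83 in the third of 3 Dusp14 windows. Over all 33469 promoter windows of this length, 1.5% held a CArG box, 1.59% TGACGTCA, 6.34% TGANTCA and 3.1% CCGGAAGT. A match is a description of the letters and not a measured binding site. The deposited values were made on another build, Rnor_6.0, so no coordinate here belongs to the expression files.

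Levels are in TPM, a share of all transcripts corrected for length, so they can be compared between genes. Each library summed to 1000000 and between 14890 and 15392 rows were above 0. TPM carries no read depth, so the counting error is unknown. A gene used by every cell, Rps6, had a value of 0 throughout the 12 libraries, and a 0 was therefore not taken to mean that a gene was silent. All 8 neuron markers and all 6 astrocyte markers were above 1 TPM in every library. The 8 neuron markers summed to between 2409 and 2539 TPM in IC, 2343 and 2655 in EV, 2033 and 2315 with the 3–100 kDa proteins and 1968 and 2424 with TS, so the 3–100 kDa libraries lay wholly below IC in deposited TPM. Tubb3, the most abundant of them, differed from IC by −0.26 (SE 0.17) with the 3–100 kDa proteins and by −0.29 (SE 0.15) with TS, the latter without overlap after rescaling. The 6 astrocyte markers summed to between 644 and 730 TPM in IC, 849 to 1244 in EV, 682 to 1144 with the 3–100 kDa proteins and 870 to 1254 with TS. Gfap carried most of this difference, at 85.1, 361 and 128 TPM in IC and 491, 617 and 362 TPM in EV. In EV the other 5 astrocyte markers differed from IC by −0.01 to 0.10 in log2(TPM + 1), with the 3–100 kDa proteins by −0.12 to 0.35 and with TS by 0.09 to 0.40, and each overlapped IC. The 7 oligodendrocyte lineage markers summed to between 137 and 189 TPM in IC, 150 and 178 in EV, 106 and 155 with the 3–100 kDa proteins and 197 and 215 with TS. In that list Olig1 lay wholly below IC with the 3–100 kDa proteins (−0.59, SE 0.21) and Olig2 wholly above IC with TS (0.53, SE 0.13), neither passing an adjusted p of 0.05 in limma. Microglia markers (6 genes) summed to at most 1.97 TPM, the 3 endothelial markers found in the files to at most 0.361 TPM, and fibroblast and mural markers (6 genes) to between 2.99 and 4.28 TPM in IC, 1.69 and 3.44 in EV, 2.28 and 2.56 with the 3–100 kDa proteins and 2.14 and 3.10 with TS. In this last list Pdgfrb fell with the 3–100 kDa proteins, as given below, while Col1a1, a fibrillar collagen gene, lay wholly above IC there (1.10, SE 0.24) without passing. In bulk cultures a change in the number of cells of one type and a change in RNA per cell cannot be told apart, and the part of these marker differences in those described below was not tested.

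Dusp4 had the highest mean level of the 5 phosphatases in every group. Dusp4 encodes a nuclear phosphatase of ERK, JNK and p38. Its level in IC was 25.7, 26.2 and 29.7 TPM in replicates 1 to 3. It was 36.1, 55.8 and 49.4 TPM in EV, 107, 162 and 99.6 TPM with the 3–100 kDa proteins, and 122, 128 and 107 TPM with TS. Every treated library lay above every IC library, and the 3–100 kDa and TS libraries lay above those of EV. The difference from IC in log2(TPM + 1) was 0.74 (SE 0.19) for EV, 2.13 (SE 0.19) for the 3–100 kDa proteins and 2.10 (SE 0.14) for TS.

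Dusp5, a nuclear phosphatase specific for ERK, was far scarcer. IC libraries held 1.02, 0.549 and 1.20 TPM and EV libraries 1.03, 0.515 and 2.11 TPM, and these groups overlapped. The 3–100 kDa proteins gave 5.65, 6.34 and 9.54 TPM, and TS gave 4.68, 3.17 and 3.29 TPM. Both lay above all IC and EV libraries. The difference from IC was 0.16 (SE 0.34) for EV, 2.09 (SE 0.29) for the 3–100 kDa proteins and 1.30 (SE 0.24) for TS on the log2(TPM + 1) scale, which understates changes of genes near 1 TPM. In ratios of mean TPM the 3–100 kDa proteins stood at 7.79 times IC and TS at 4.03 times IC. After rescaling, only 1 IC library reached 1 TPM, so the gene entered the comparisons with these preparations through the treated libraries.

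Dusp1, the immediate early nuclear phosphatase of p38, JNK and ERK, went the other way. Its IC libraries held 9.47, 10.0 and 7.76 TPM and its EV libraries 8.96, 7.54 and 8.05 TPM. With the 3–100 kDa proteins it was 6.68, 7.04 and 6.25 TPM, and with TS 5.27, 6.67 and 6.60 TPM. All libraries of the last 2 groups lay below all IC libraries, while EV and IC overlapped. The difference from IC was −0.14 (SE 0.18) for EV, −0.36 (SE 0.16) for the 3–100 kDa proteins and −0.47 (SE 0.19) for TS. Its mean TPM relative to IC was 0.901, 0.733 and 0.681 in that order.

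Dusp6, the cytoplasmic phosphatase specific for ERK, showed little spread in IC, at 8.84, 8.05 and 8.54 TPM. EV gave 15.6, 20.2 and 20.3 TPM, the 3–100 kDa proteins 39.0, 53.7 and 52.8 TPM, and TS 29.4, 36.0 and 34.9 TPM. No pair of groups overlapped. The difference from IC was 1.04 (SE 0.17), 2.40 (SE 0.19) and 1.87 (SE 0.16) in log2(TPM + 1) for EV, the 3–100 kDa proteins and TS. Dusp14, a small atypical phosphatase without the kinase-binding domain of the MAP kinase phosphatases, followed a like order at a lower level. It was 4.32, 3.86 and 4.32 TPM in IC, 6.13, 7.79 and 7.88 TPM in EV, 19.7, 25.2 and 21.5 TPM with the 3–100 kDa proteins and 21.3, 19.4 and 19.3 TPM with TS. The 3–100 kDa and TS libraries of Dusp14 overlapped, whereas each lay above EV and EV above IC. Its difference from IC was 0.66 (SE 0.19) for EV, 2.18 (SE 0.17) for the 3–100 kDa proteins and 2.04 (SE 0.15) for TS.

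Spry2 had the highest level of the 10 genes in IC, and both Sprouty genes were higher in all 3 treatments. Sprouty proteins restrain signalling from receptor tyrosine kinases to Ras and Raf. Spry2 was 44.8, 39.3 and 38.3 TPM in IC, 58.7, 61.0 and 62.5 TPM in EV, 107, 124 and 124 TPM with the 3–100 kDa proteins and 83.4, 100.2 and 100.2 TPM with TS. No pair of groups overlapped in deposited TPM, although TS and the 3–100 kDa proteins did after rescaling. Relative to IC the difference was 0.56 (SE 0.13) for EV, 1.54 (SE 0.14) for the 3–100 kDa proteins and 1.21 (SE 0.15) for TS. Spry4 started from 5.26, 4.14 and 6.27 TPM in IC. It was 9.23, 18.6 and 20.7 TPM in EV, 24.8, 47.6 and 40.3 TPM with the 3–100 kDa proteins and 20.4, 28.7 and 30.4 TPM with TS. Every treated library of Spry4 exceeded every IC library, but TS overlapped EV and the 3–100 kDa proteins. Its difference from IC was 1.40 (SE 0.32), 2.62 (SE 0.28) and 2.16 (SE 0.25) for EV, the 3–100 kDa proteins and TS.

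**Figure D1:**
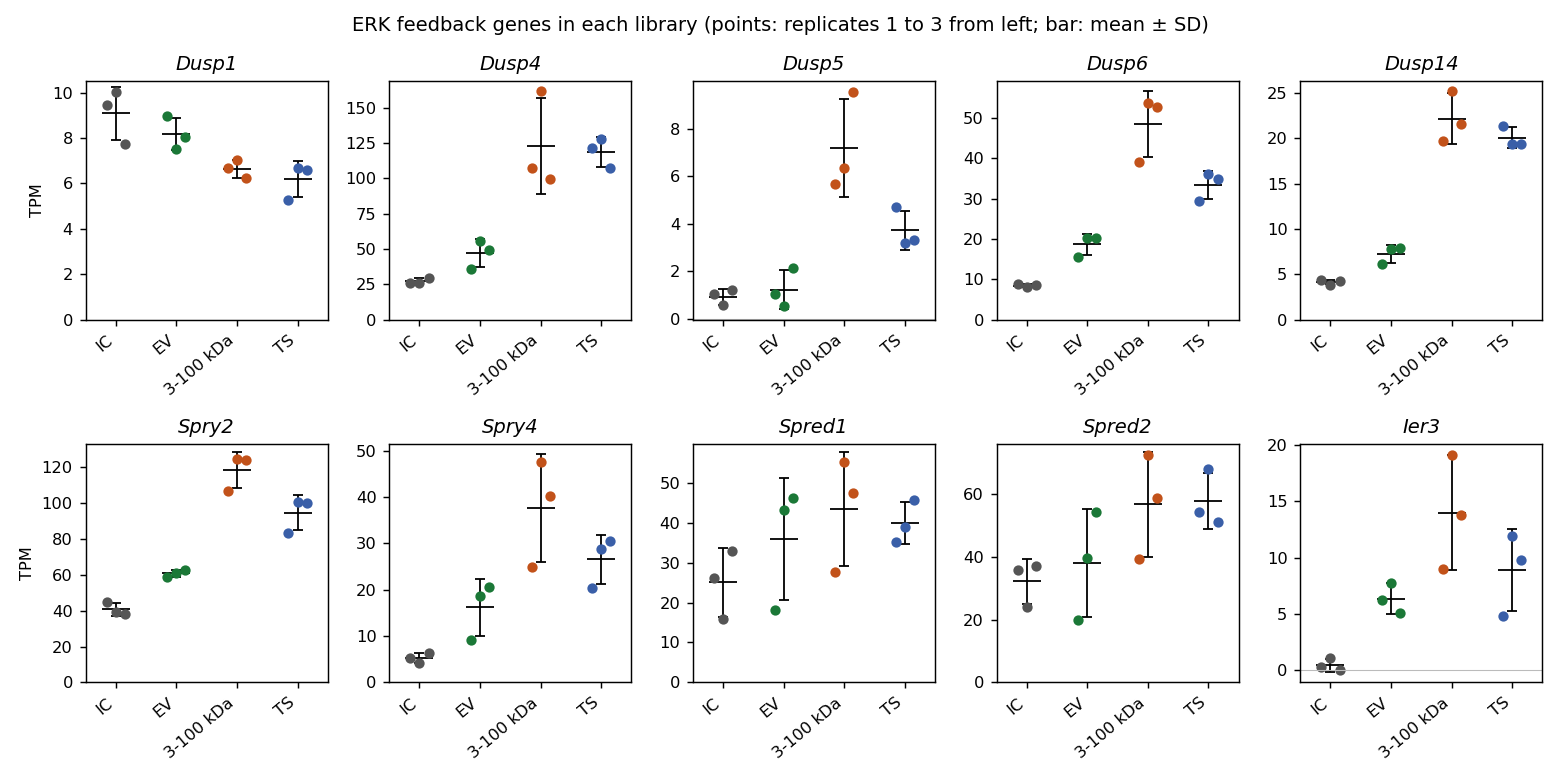
Level in TPM (vertical axes, linear, a separate scale for each gene) of the 10 genes in the 12 libraries, by group (IC, EV, 3–100 kDa proteins, TS); points are libraries and bars the mean ± SD of 3. For Dusp6 the EV, TS and 3–100 kDa libraries form steps above IC, Dusp1 steps down, and the Spred genes spread widely within groups.

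Spred1 and Spred2 varied widely within groups. Spred1 was 26.1, 15.99 and 33.0 TPM in IC, 18.3, 43.2 and 46.2 TPM in EV, 27.7, 55.3 and 47.4 TPM with the 3–100 kDa proteins and 35.2, 38.8 and 45.6 TPM with TS. Spred2 was 35.9, 24.1 and 37.0 TPM in IC, 20.0, 39.8 and 54.4 TPM in EV, 39.3, 72.5 and 58.8 TPM with the 3–100 kDa proteins and 54.5, 68.2 and 51.2 TPM with TS. In deposited TPM, Spred1 with TS and Spred2 with both TS and the 3–100 kDa proteins lay wholly above IC, and after rescaling Spred2 with TS alone did. Differences from IC were 0.44 (SE 0.40), 0.80 (SE 0.35) and 0.72 (SE 0.29) for Spred1 in EV, the 3–100 kDa proteins and TS. For Spred2 it was 0.14 (SE 0.36), 0.81 (SE 0.27) and 0.86 (SE 0.21).

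The low Spred values fell in libraries that were also low in Map2, a neuronal microtubule protein. Map2 was 139 TPM in IC replicate 2 against 245 and 296 TPM in the other IC libraries. It was 136 TPM in EV replicate 1 against 274 and 305 TPM, and 153 TPM in 3–100 kDa replicate 1 against 245 and 205 TPM. Over the 12 libraries the Pearson correlation of log2(TPM + 1) with Map2 was 0.67 for Spred1 and 0.46 for Spred2, and lay between −0.16 and 0.15 for the other 8 genes. These are descriptions over libraries that share groups and were prepared from the same kind of culture. Without these 3 libraries, an alternative chosen after the values were seen, the 3–100 kDa proteins differed from IC by 0.83 (SE 0.17) for Spred1 and 0.87 (SE 0.12) for Spred2. The same step left EV against IC at 0.56 (SE 0.18) for Spred1 and 0.31 (SE 0.19) for Spred2.

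**Figure D2:**
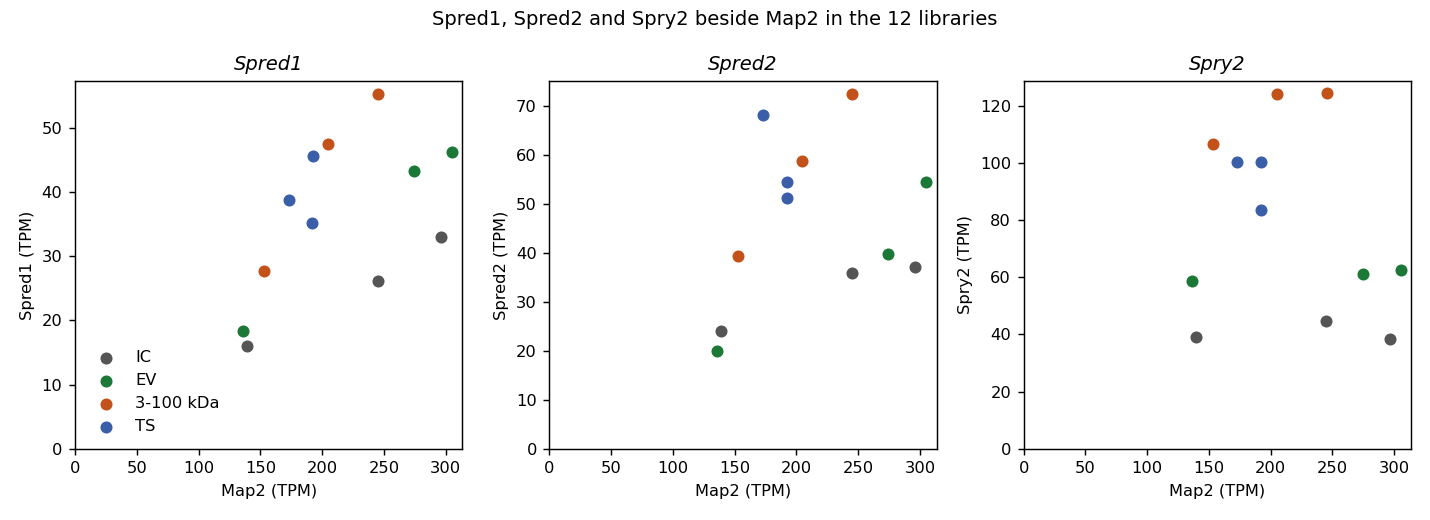
Level of Spred1, Spred2 and Spry2 (vertical axes, TPM) against that of Map2 (horizontal axis, TPM) in the 12 libraries, coloured by group. The 3 libraries of lowest Map2 hold the lowest Spred1 and Spred2 value of their group, while Spry2 keeps to a separate range in each group.

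Ier3 encodes an early response protein that ERK phosphorylates and that can prolong ERK phosphorylation through the phosphatase PP2A, so it is not a simple restraint. IC libraries were listed at 0.298, 1.10 and 0 TPM. The gene was 6.27, 7.77 and 5.08 TPM in EV, 8.996, 19.2 and 13.8 TPM with the 3–100 kDa proteins and 4.87, 11.96 and 9.81 TPM with TS. All treated libraries lay above all IC libraries, and TS overlapped both EV and the 3–100 kDa proteins. The difference from IC was 2.38 (SE 0.32) for EV, 3.39 (SE 0.36) for the 3–100 kDa proteins and 2.76 (SE 0.41) for TS in log2(TPM + 1), a scale that understates it where the control is near 0. Like Dusp5, it entered the comparisons with IC through the treated libraries, since 1 IC library reached 1 TPM.

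Against IC, the order of group means was 3–100 kDa proteins, TS, EV and IC from high to low for 8 of the 10 genes. Spred2 had TS above the 3–100 kDa proteins, and Dusp1 was highest in IC, followed by EV, the 3–100 kDa proteins and TS. For EV, 0 of the 10 genes passed an adjusted p of 0.05 in limma, beside 0.141% of 12749 genes tested, and 6 had an unadjusted p under 0.05, beside 2.82%. With all 12 libraries in 1 fit the count was 2 of 10, beside 0.437% of all genes in that fit. It was 1 with a pseudocount of 5, beside 0.18%, and 1 without IC replicate 2, beside 0.167%. Ier3 had entered the EV comparison through the treated libraries, with 1 IC library at 1 TPM. Dusp4, Dusp6, Dusp14, Spry2, Spry4 and Ier3 (6 of 10) lay wholly above IC, beside 3.68% of all genes. For the 3–100 kDa proteins, 7 of 10 passed, all but Dusp1, Spred1 and Spred2, beside 3.31% of 12788 genes, and the same 7 lay wholly above IC beside 12.6%. Dusp5 and Ier3, among these 7, had entered through the treated libraries. Without the libraries of low Map2 the count was 8, beside 7.4% of all genes in that fit. Spred1 and Spred2 were then among the 8, and Ier3 was not tested. For TS the same 7 as in the main 3–100 kDa fit passed beside 1.97% of 12787 genes. Wholly above IC lay 8, beside 13.1%, Spred2 being the added gene. Nothing is read from these counts, because such contrasts were used to choose the genes. The median difference over the 10 genes was 0.61 for EV, 2.11 for the 3–100 kDa proteins and 1.59 for TS, and the median over all genes tested was −0.01, −0.02 and −0.01. The TS count rested on few libraries. It was 3 without TS replicate 2 or without TS replicate 3, beside 0.278% and 0.246% of all genes in those fits, and 4 without IC replicate 1, beside 0.556%, so the share over all genes fell too. Without IC replicate 2 it was 8, beside 6.41%. It was 5 at a pseudocount of 0.1 TPM, beside 1.86%, and 6 with no filter, beside 1.11%. A filter of 5 TPM left 5, beside 2.16%, with Dusp5 and Ier3 not tested.

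**Figure D3:**
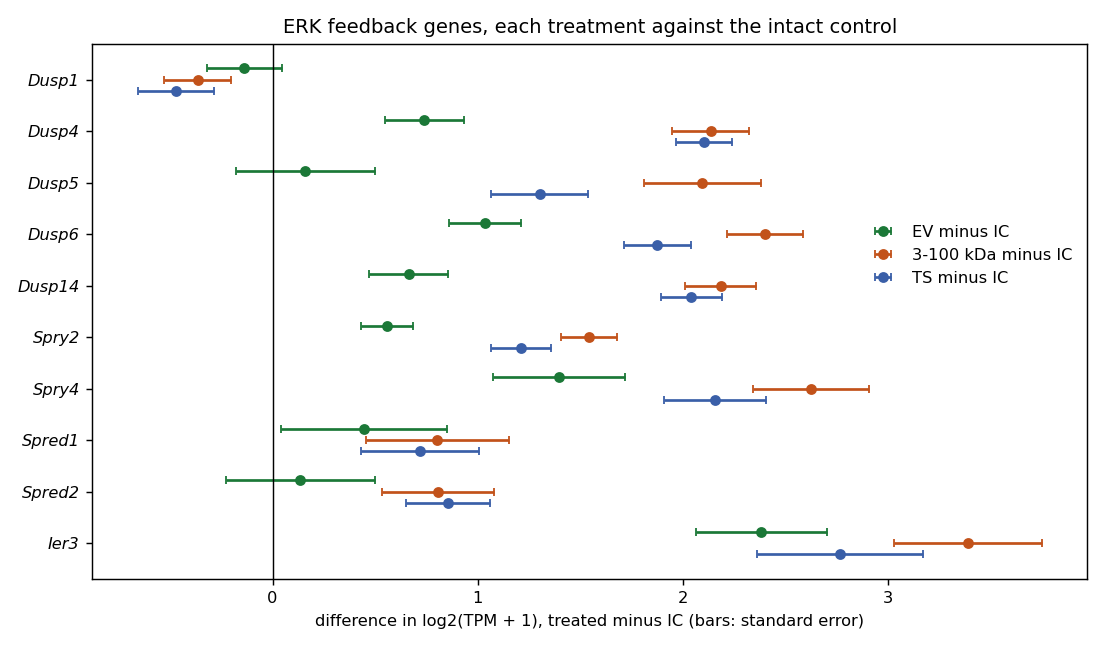
Difference from IC in log2(TPM + 1) (horizontal axis) of the 10 genes for EV, the 3–100 kDa proteins and TS; points are the fitted differences and bars the standard error. Outside Dusp1 all points lie above 0, from 0.14 for Spred2 in EV to 3.39 for Ier3 with the 3–100 kDa proteins.

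The 3–100 kDa proteins and TS were also set beside EV, again as a description, since these comparisons share their EV libraries with EV against IC. The difference between the 3–100 kDa proteins and EV was largest for Dusp5, at 1.93 (SE 0.35), followed by Dusp14 at 1.51 (SE 0.17), Dusp4 at 1.38 (SE 0.20), Dusp6 at 1.35 (SE 0.19) and Spry4 at 1.22 (SE 0.35). Ier3 differed by 1.01 (SE 0.28) and Spry2 by 0.97 (SE 0.13). These 7 genes lay wholly above EV, beside 8.98% of all genes. TS exceeded EV by 1.37 (SE 0.16) for Dusp14, 1.35 (SE 0.16) for Dusp4, 1.13 (SE 0.31) for Dusp5, 0.83 (SE 0.17) for Dusp6 and 0.64 (SE 0.15) for Spry2, and these 5 lay wholly above EV beside 7.47% of all genes. Ier3 was the gene whose EV level came nearest to TS among those that lay wholly above IC in all 3 treatments, with a difference of 0.38 (SE 0.33). After rescaling Dusp1 lay wholly below EV with the 3–100 kDa proteins, at −0.24 (SE 0.17), while with TS it lay below EV in deposited TPM only, at −0.34 (SE 0.20). By the correlations of same-numbered libraries both comparisons with EV were read as paired. With the replicate block Spry4, which overlapped between TS and EV, differed by 0.75 with an SE of 0.15 in place of 0.31.

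TS was compared with the 3–100 kDa proteins by a test, since this comparison uses neither IC nor EV libraries. The genes were nevertheless chosen with results of these libraries known, so the test is not independent of that choice. By limma across 12713 genes, 0 of the 10 genes passed an adjusted p of 0.05, beside 0.0157% of all genes. At an unadjusted p under 0.05, 2 of the 10 genes passed, beside 2.64% of all genes, and the adjusted p in limma was 1 for each of the 10. Both, Dusp5 and Dusp6, were lower with TS and lay wholly below the 3–100 kDa libraries, as 3.23% of all genes did. Dusp5 differed by −0.79 (95% interval −1.37 to −0.20) and Dusp6 by −0.52 (95% interval −0.94 to −0.09) in log2(TPM + 1). With the replicate number as a block, 0 of the 10 passed the adjusted threshold and 5 passed the unadjusted one, beside 5.24% of all genes. Without replicate 1 of the 3–100 kDa proteins 5 also passed the unadjusted one, beside 10.1% of all genes. The number was 1 without replicate 1 of TS, beside 2.95%, and 1 without replicate 2 or replicate 3 of the 3–100 kDa proteins, beside 2.38% and 1.83%.

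Without the block, the 95% intervals of Dusp4, from −0.37 to 0.33, Dusp14, from −0.43 to 0.16, and Dusp1, from −0.51 to 0.31, left out a difference of 1 log2 unit in either direction. Spry2 spanned −0.67 to 0.03, Spred1 −0.70 to 0.55 and Spred2 −0.46 to 0.58. Spry4 spanned −1.11 to 0.19 and Ier3 −1.48 to 0.24, so a difference of −1 log2 unit lay inside both. With the replicate block, since the libraries were read as paired, the intervals of Spry2 (−0.52 to −0.13), Spry4 (−0.71 to −0.21) and Ier3 (−0.94 to −0.30) lay below 0 as did those of Dusp5 and Dusp6, while the other 5 crossed it, before any adjustment over genes. The pairing was read from these same data, and 3–100 kDa and IC libraries were not read as paired. The blocked intervals are therefore a description. TS was added at 45 µg/mL and the 3–100 kDa proteins at 15 µg/mL, and the dose and the kind of preparation cannot be told apart.

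**Figure D4:**
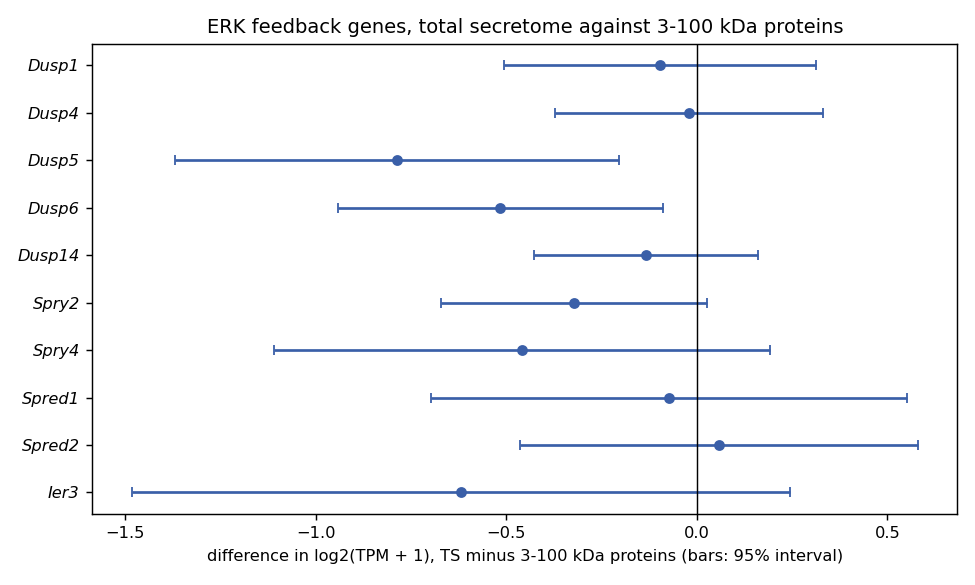
Difference in log2(TPM + 1) between TS and the 3–100 kDa proteins (horizontal axis) for the 10 genes, with 95% intervals from limma without the replicate block. The intervals of Dusp5 and Dusp6 lie below 0 and the other 8 cross it.

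Of 120 other genes of the pathway, in 7 lists, 119 were found in the files by symbol. These lists were also written with earlier results of these data known, so their calls are not independent evidence of a direction. The kinase cascade itself showed no call. In the Ras-Raf-MEK-ERK list, 0 of 24 genes passed limma's adjusted p in any comparison with IC. At an unadjusted p under 0.05 the counts were 0, 3 and 4 for EV, the 3–100 kDa proteins and TS. Over all genes tested they were 360 of 12749, 2177 of 12788 and 2076 of 12787 in the same order. The median difference of the Ras-Raf-MEK-ERK list was 0.07, 0.11 and 0.09. The adaptor gene Gab1 had the lowest p of the list with TS, at a difference of 0.63 (SE 0.15). In the p38 and JNK list 10 genes were tested with the 3–100 kDa proteins and with TS. In each 1 passed, beside 3.31% and 1.97% of all genes. This was Map2k6, an activator of p38, which fell by 0.94 with the 3–100 kDa proteins and by 0.78 with TS. Neither call held with the replicate block.

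Among the other MAP kinase phosphatases 0 of 5 tested passed the adjusted threshold in each of the 3 comparisons with IC. At an unadjusted p under 0.05 the counts were 0, 2 and 1 for EV, the 3–100 kDa proteins and TS. Over all genes tested they were 360 of 12749, 2177 of 12788 and 2076 of 12787. Dusp2 differed by 0.78 (SE 0.23) with the 3–100 kDa proteins and Dusp16 by 0.72 (SE 0.18) with TS, both without passing. With all 12 libraries in 1 fit Dusp16 passed with both preparations (adjusted p = 0.0334 and 0.0237 in limma). Among 14 other dual-specificity phosphatases tested, 0 passed, and 0, 3 and 4 had an unadjusted p under 0.05, beside the same counts over all genes. Dusp23 had the lowest p of that list, with a difference of −1.15 (SE 0.24) for the 3–100 kDa proteins, and passed with quantile normalisation (adjusted p = 0.0435 in limma). The other Sprouty genes stayed under the threshold too, with Spry1 at 0.86 (SE 0.33) and Spry3 at −0.12 (SE 0.25) for the 3–100 kDa proteins. The difference between these genes and the 10 was not tested.

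Further restraints of the pathway were partly called. Beside 3.31% of all genes passing in either direction, 3 of 16 tested rose with the 3–100 kDa proteins. These were Errfi1, an inhibitor of the EGF receptor family, by 2.06 (SE 0.30, adjusted p = 0.0146 in limma), Spred3 by 1.41 (SE 0.22, adjusted p = 0.0168) and the pseudokinase gene Trib1 by 2.01 (SE 0.33, adjusted p = 0.0213). With TS, Spred3 rose by 1.43 (SE 0.19) and Trib1 by 1.77 (SE 0.21), beside 1.97% of all genes passing. With EV 0 of 16 passed, beside 0.141%, and 2 had an unadjusted p under 0.05, beside 2.82%. Tob1, an antiproliferative gene of the same list named after its values were seen, lay wholly below IC with the 3–100 kDa proteins (−0.95, SE 0.22) and with TS (−0.89, SE 0.17), without passing. With all 12 libraries in 1 fit it passed in both (adjusted p = 0.0143 and 0.0297 in limma). Spred3 was 5.22, 7.60 and 4.87 TPM in IC and 19.8, 18.7 and 12.6 TPM with the 3–100 kDa proteins, without the low replicate 1 seen in Spred1 and Spred2.

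Among 17 growth factor receptors tested, Osmr and Fgfr1 rose with the 3–100 kDa proteins and with TS, where 3.31% and 1.97% of all genes passed. Osmr, a subunit of the oncostatin M receptor, was 0, 0.682 and 0.451 TPM in IC and 8.69, 14.9 and 12.8 TPM with the 3–100 kDa proteins. Its difference was 3.26 (SE 0.29) there and 3.02 (SE 0.25) with TS, and since no IC library reached 1 TPM it entered the test through the treated libraries. In EV it was 3.08, 13.1 and 12.9 TPM, a difference of 2.77 (SE 0.50) that did not pass (adjusted p = 0.185 in limma), but did with all 12 libraries in 1 fit (adjusted p = 0.0127 in limma). Fgfr1, a receptor of fibroblast growth factors, rose by 1.65 (SE 0.17) with the 3–100 kDa proteins and by 1.45 (SE 0.16) with TS. Pdgfrb, which also marks mural cells, fell by 1.42 with the 3–100 kDa proteins, from a mean of 3.21 TPM in IC to 0.551 TPM. With 0 treated libraries at 1 TPM, Pdgfrb entered that test through the IC libraries alone and was not tested whenever an IC library was left out. It lay wholly below IC in EV (−0.90, SE 0.24) and TS (−0.92, SE 0.22) too, passing in neither, although with all 12 libraries in 1 fit it passed with TS (adjusted p = 0.0342 in limma).

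Most of the calls lay in the list of ERK-dependent transcripts, a name given when the list was written. Dependence on ERK was not measured in these cultures. With the 3–100 kDa proteins the median difference was 1.28. Beside 3.31% of all genes passing in either direction, 10 of 23 tested rose and 0 fell past the threshold. Among them were Fosl1 at 4.84 (SE 0.25), Egr2 at 4.14 (SE 0.31), Phlda1 at 3.08 (SE 0.24), Egr1 at 2.91 (SE 0.22) and Fosb at 2.82 (SE 0.25). Ccnd1, which encodes cyclin D1, rose by 2.62 (SE 0.21), and Arc, Maff, Etv5 and Myc rose by 2.56, 2.40, 1.29 and 1.16. The call of Myc did not hold with the replicate block. With TS 10 of 23 rose as well, beside 1.97% of all genes passing, at a median of 1.05. Among the 10 were Fosl1 at 3.51 (SE 0.40), Egr2 at 3.45 (SE 0.28) and Fosb at 2.97 (SE 0.25). Fos was called there at 2.23 (SE 0.25) and Myc was not. Fosl1, Egr2, Fosb and Maff had no IC library at 1 TPM, so they entered through the treated libraries, and their place among the differences depends on the pseudocount. Arc had 1 IC library at 1 TPM. With EV the median was 0.35 and 2 of 20 rose, beside 0.141% of all genes passing. These were Fosl1 by 2.53 (SE 0.22), again entering through the treated libraries, and Fos by 2.13 (SE 0.24, adjusted p = 0.0397 in limma). Epha4 was lowest in this list, at −0.88 with the 3–100 kDa proteins and −1.01 with TS, passing in neither. It lay wholly below IC in both, and with all 12 libraries in 1 fit it passed in both (adjusted p = 0.0372 and 0.0278 in limma).

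Fos and the 10 feedback genes did not follow one order. Fos was 21.8, 19.4 and 15.3 TPM in EV and 7.5, 11.2 and 13.0 TPM with the 3–100 kDa proteins, whereas Fosl1 was 4.36, 5.42 and 5.55 TPM in EV and 22.1, 29.8 and 35.5 TPM with the 3–100 kDa proteins. With TS, Fos was 15.5, 22.5 and 21.6 TPM and Fosl1 5.59, 13.7 and 16.2 TPM. In IC, Fos was 4.46, 4.05 and 2.24 TPM and Fosl1 0, 0.138 and 0 TPM.

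Over all 7 lists, 17 genes passed with the 3–100 kDa proteins (15 higher, 2 lower), 15 with TS (14 higher, 1 lower) and 2 with EV (both higher), of 109, 109 and 107 tested. The share of all genes that passed was 3.31%, 1.97% and 0.141% in that order. Between TS and the 3–100 kDa proteins 0 of 107 passed in limma, with 8 at an unadjusted p under 0.05, beside 2.64% of all genes. Errfi1 (−1.10, SE 0.32) and Phlda1 (−1.27, SE 0.31) had the lowest p of their lists, and these 2 passed with the replicate block. The counts moved with single libraries left out, and where they fell this was in part because genes were then no longer tested. Of the called genes, 5 of 17 with the 3–100 kDa proteins and 5 of 15 with TS (Egr2, Fosb, Fosl1, Maff and Osmr) and 1 of 2 with EV (Fosl1) had no IC library at 1 TPM and dropped out whenever a treated library was left out. Pdgfrb had no 3–100 kDa library at 1 TPM and dropped out of that comparison whenever an IC library was left out. The 3–100 kDa count was 4, 5 and 10 without replicate 2, 3 and 1 of that group and 11 without IC replicate 1, 13 without IC replicate 3 and 19 without IC replicate 2. The TS count was 0, 1 and 8 without TS replicate 3, 2 and 1 and 7 without IC replicate 1, 12 without IC replicate 3 and 21 without IC replicate 2. The EV count was 1 without IC replicate 2 and 0 without any other single library. In these fits the share of all genes called ran from 0.658% to 3.84% for the 3–100 kDa proteins, from 0.246% to 6.41% for TS and up to 0.167% for EV.

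**Figure D5:**
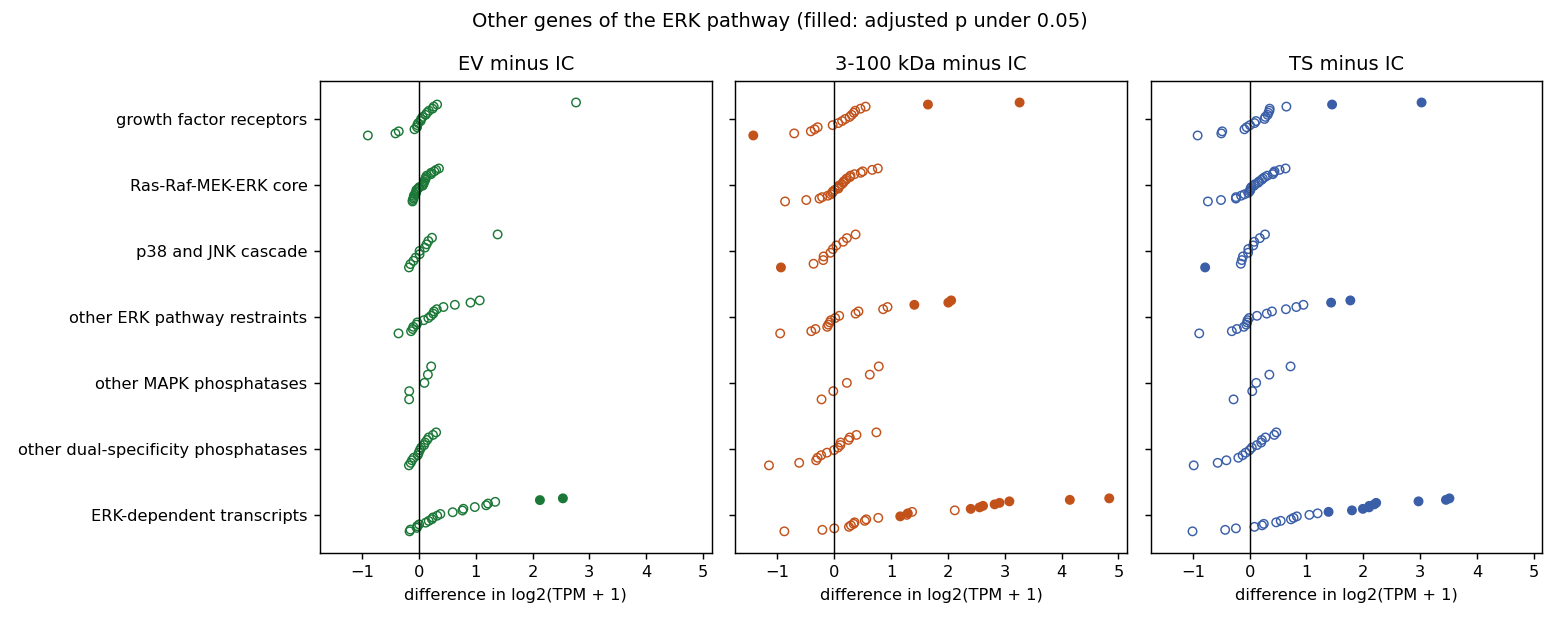
Difference from IC in log2(TPM + 1) (horizontal axes) of the other genes of the pathway, by list, for EV, the 3–100 kDa proteins and TS; each circle is 1 gene, filled where the adjusted p in limma is under 0.05. Filled circles gather in the list named ERK-dependent transcripts, 10 each for the 3–100 kDa proteins and TS and 2 for EV, and none lies in the Ras-Raf-MEK-ERK core or the phosphatase lists.

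Likeness among the 10 genes was measured as the Pearson correlation of log2(TPM + 1) over the 12 libraries, which fall into the 4 groups. Each gene's correlation with the mean standardised level of the other 9 was 0.98 for Spry4, 0.98 for Dusp6, 0.97 for Spry2, 0.94 for Dusp14, 0.93 for Dusp4, 0.85 for Dusp5 and Ier3, 0.80 for Spred2, 0.73 for Spred1 and −0.73 for Dusp1. Of 13253 genes compared with the mean of all 10, the 5 most alike were Tbc1d1 (0.99), Il1rap (0.99), Vcl (0.99), Hk2 (0.98) and Lamc1 (0.98). Vcl, which encodes the adhesion protein vinculin, had a mean of 8.80 ± 1.89 TPM in IC, 16.5 ± 5.12 in EV, 48.5 ± 13.9 with the 3–100 kDa proteins and 30.7 ± 5.72 with TS (SD, n = 3). Hk2, a hexokinase, had means of 2.08 ± 0.176, 3.59 ± 0.329, 8.504 ± 1.64 and 6.73 ± 1.30 TPM in the same order. These correlations describe a shared order of groups and carry no p-value.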

How the data were processed

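RNA of 12 cultures was sequenced, 3 in each of 4 groups. Per their methods, the authors ran Trimmomatic and Cutadapt on the reads, estimated transcript abundance with Salmon on the rn6 transcripts of Ensembl, and obtained gene values through tximport. The labels name a strand-specific library, whereas the methods name another kit and instrument. The unit is not named in the files. Since every library adds up to 1000000 and values carry decimals, the deposited values were read as TPM computed by the authors. TPM keeps no depth, so the precision rests on the spread between 3 libraries.

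Where a name had several rows their TPM was added. Median-of-ratios factors (0.909 to 1.08 over 12 libraries) rescaled each comparison, and a gene entered it with 1 TPM or more in 3 or more of its 6 libraries. Overlap between groups was judged on rescaled values. limma 3.58.1 in R 4.3.3 (lmFit, eBayes with a trend) was fitted to log2(TPM + 1) across all genes for each pair of groups, with Benjamini-Hochberg adjustment and a threshold of 0.05. The authors used a count test, which TPM does not allow. The script was tested on simulated data.

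The 10 genes and all lists were chosen with earlier results of these data known. The rule named all 10 genes, each pathway gene that passed in a comparison with IC and up to 3 of lowest p per list, and the 5 genes most correlated with the 10. Spry1, Spry3 and Map2 were named after their values were seen. Ier2 and Pecam1 were not matched by symbol.

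The labels number the libraries of a group 1 to 3. After subtraction of group means, libraries with the same number correlated by 0.38, 0.21 and 0.24 between TS and the 3–100 kDa proteins, by 0.25, 0.16 and 0.16 between TS and IC, by 0.59, 0.29 and 0.30 between the 3–100 kDa proteins and EV and by 0.26, 0.19 and 0.21 between TS and EV, and were read as paired, a hint from the data, since the labels do not say what a number marks. The authors' supplement mentions a day covariate for IC and EV, but nothing ties a library to a day, so it could not be fitted. Same-numbered libraries correlated by −0.08, −0.18 and 0.54 for EV and IC and by −0.01, −0.25 and 0.25 for the 3–100 kDa proteins and IC, which were not read as paired. IC was thus read as paired with TS, and TS with EV and the 3–100 kDa proteins, but IC with neither of these. These readings conflict, so results with the replicate block are a description. Alternatives covered the pseudocount, filter, scaling, all 12 libraries in 1 fit, the replicate block and each library left out.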

Additional observations from a re-analysis of the deposited data

How the results depend on the processing

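The direction of every difference of the 10 genes from IC held under all alternatives in which the gene was tested, except Spred2 in EV, which was 0.14 and lay between −0.19 and 0.51 with single libraries left out. Between TS and the 3–100 kDa proteins 0 of the 10 genes passed under each alternative. The median difference of the 10 genes depended on the pseudocount. It was 1.52 for the 3–100 kDa proteins and 1.23 for TS at a pseudocount of 5 TPM, and 1.97 for TS at 0.1 TPM, against 2.11 and 1.59 at 1 TPM. The counts of other pathway genes were less stable. For EV the count of 2 became 1 at a pseudocount of 0.1 TPM, 1 with no filter, 0 with a filter of 5 TPM and 5 with all 12 libraries in 1 fit. It was 0 with the replicate block, 1 without the libraries of low Map2, where the gene was Ccnd1 and Fosl1 was not tested, and between 0 and 1 with single libraries left out. For the 3–100 kDa proteins the count of 17 became 26 with all 12 libraries in 1 fit and lay between 4 and 19 with single libraries left out. It was 14 with the replicate block, where Map2k6, Myc and Pdgfrb no longer passed. For TS the count of 15 lay between 0 and 21 with single libraries left out and was 15 with the replicate block, where Map2k6 was lost and Epha4, an ephrin receptor, was added at −1.01. Up to 5 of the called genes were not tested once a treated library was left out, since their IC libraries lay under 1 TPM. With the 3–100 kDa proteins Pdgfrb was not tested once an IC library was left out. The cause of the other shifts was not tested. Depth is unknown, so it is not known how far counting error adds to the spread of Dusp5 and Ier3 in IC.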
